A study of Mus musculus with 12 samples.

Results

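The 9 genes described here encode regulators of keratinocyte fate, namely Trp63, Klf4, Grhl1, Grhl3, Ovol1, Zfp750, Prdm1, Gata3 and Hopx. They were chosen by name, as rows of the count table that carry these symbols, and all 9 were found among 21947 loci. The rule used no measured value, but the list was drawn up with earlier results of these data known. Each of the 9 had a row of its own and passed the filter on low counts in every comparison. Rows in which commas join a member with other genes were left out, and the largest of these held 10 reads in any library. The epidermis renews itself from a basal layer of dividing keratinocytes, which stop dividing, move upward and build the cornified barrier. p63, the product of Trp63, opens the epithelial programme and keeps the basal layer, while Zfp750, Klf4, the grainyhead factors Grhl1 and Grhl3, Ovol1 and Prdm1 act in cells that leave it. Gata3 takes part in hair follicle lineage choice and barrier lipid synthesis, and Hopx is a small homeodomain protein that does not bind DNA itself and acts through partner proteins.

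The libraries came from primary keratinocytes of neonatal BALB/c mice, seeded in medium with 0.05 mM calcium and moved to 0.12 mM calcium to start differentiation. Batch 1 held 2 libraries that received no siRNA, 2 that received a non-targeting pool (siControl) and 2 that received a pool against suprabasin (siSbsn), the product of Sbsn, which is made in suprabasal cells. Batch 2 held 3 siControl and 3 siSbsn libraries. Transfected wells received 75 pmol of siRNA and RNA was taken 48 h later, and all groups shared the strain, the medium and the calcium step. The labels do not say whether replicates came from separate animals or wells of 1 isolate, so p-values measure the spread between these libraries, which may be technical, and they do not say what set the batches apart.

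Among the 7 comparisons with all libraries kept, members were called only between the batches, where 38% of 13211 loci were called. These members were 2 of the 9, Hopx and Grhl1. Their promoter windows are printed because each gene has a pair of annotated starts in the RefSeq table (GRCm38.p6, 250 bases before to 50 bases after the start, written 5′ to 3′ on the gene's own strand), and both starts of each gene lie inside its counted row. The counts per gene therefore merge transcripts from both starts. Capitals mark CACCC, the core recognised by Krüppel-like factors, on either strand.
Hopx, chr5:77115074-77115373, minus strand: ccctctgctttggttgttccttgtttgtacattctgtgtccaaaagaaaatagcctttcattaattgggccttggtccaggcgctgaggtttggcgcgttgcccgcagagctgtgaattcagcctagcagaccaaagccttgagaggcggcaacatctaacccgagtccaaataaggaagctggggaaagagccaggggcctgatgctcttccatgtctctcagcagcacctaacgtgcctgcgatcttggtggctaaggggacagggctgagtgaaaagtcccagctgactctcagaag
Hopx, chr5:77095218-77095517, minus strand: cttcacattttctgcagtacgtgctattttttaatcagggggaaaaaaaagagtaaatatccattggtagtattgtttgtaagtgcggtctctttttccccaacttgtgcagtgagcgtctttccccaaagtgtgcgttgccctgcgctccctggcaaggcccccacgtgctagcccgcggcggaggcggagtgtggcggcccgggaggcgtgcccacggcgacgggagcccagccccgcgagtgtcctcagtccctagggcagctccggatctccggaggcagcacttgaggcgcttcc
Grhl1, chr12:24572037-24572336, plus strand: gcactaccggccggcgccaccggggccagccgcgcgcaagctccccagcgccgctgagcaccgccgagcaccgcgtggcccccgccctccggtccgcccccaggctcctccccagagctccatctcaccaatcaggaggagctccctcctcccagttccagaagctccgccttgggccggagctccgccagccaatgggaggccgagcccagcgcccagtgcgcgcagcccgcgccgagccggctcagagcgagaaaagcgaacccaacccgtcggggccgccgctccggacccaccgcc
Grhl1, chr12:24580469-24580768, plus strand: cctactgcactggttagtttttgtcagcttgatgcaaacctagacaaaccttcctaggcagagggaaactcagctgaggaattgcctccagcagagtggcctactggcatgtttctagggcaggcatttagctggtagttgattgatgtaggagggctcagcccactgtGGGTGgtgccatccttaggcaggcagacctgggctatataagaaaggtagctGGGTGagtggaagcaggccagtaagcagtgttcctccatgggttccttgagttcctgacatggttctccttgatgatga
The 4 motifs named here were searched on both strands in the windows of the 6 members matched by symbol, which were Klf4, Grhl1, Grhl3, Prdm1, Gata3 and Hopx. The grainyhead core AACNNGTT was in none of the 8 windows, and it is in 4.2% of all 32851 windows. The AP-1 letters TGANTCA were found once, in the Prdm1 window, against 7.81% of all windows. CACCC occurred 3 times each in the Gata3 and Grhl3 windows and 2 times in the downstream Grhl1 window, and it is in 57.5% of all windows. GATAA was in none of the 8 windows and is in 25.4% of all windows. None of these motifs overlapped another, although the first 2 CACCC matches of Gata3 share a base. The upstream Grhl1 window is 75.3% G and C, the downstream one 51.3%, and the Hopx windows are 53.0% and 59.0%.

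Between 27934836 and 49553923 reads were counted per library. Sbsn was measured first because it checks the labels. In batch 2 it stood at 371, 332 and 459 CPM (the gene's reads over the TMM-scaled library total, TMM being edgeR's correction for library composition) with siControl and at 124, 125 and 121 CPM with siSbsn, a fall of 1.64 on the log2 scale (SE 0.10, edgeR's quasi-likelihood test with Benjamini-Hochberg adjustment, q = 0.00056). In batch 1, the libraries without siRNA held 1697 and 1231 CPM, those with siControl 1189 and 1356 CPM, and those with siSbsn 1965 and 697 CPM. The library labelled siSbsn batch 1 replicate 1 thus held more Sbsn than any no siRNA or siControl library of its batch. A second library, siControl batch 1 replicate 1, stood apart on the second principal component (23.5% of the variance) at 57.3, where the other 11 lay between -28.0 and 22.1. Over both batches Sbsn was at a log2-fold change of -0.96 (SE 0.35, q = 0.256) and in batch 1 at 0.03 (SE 0.45, q = 0.975), neither called by edgeR's quasi-likelihood test with Benjamini-Hochberg adjustment, so that lower Sbsn was called in batch 2 alone. Whether libraries of batch 1 were exchanged cannot be told from the labels, and comparisons that hold batch 1 are named by the siRNA label. All 8 keratinocyte markers were detected, with a sum of 43400 to 119000 CPM. All 7 fibroblast markers summed to 385 to 1210 CPM and all 5 melanocyte markers to 684 to 1020 CPM. T cell markers summed to 1.32 CPM or less and 1 of 5 passed the filter, a list given because Gata3 and Prdm1 are also used by lymphocytes. The 6 myeloid and Langerhans cell markers summed to 2.02 to 10.6 CPM and 4 of them passed the filter, while Cd207 was at 0 in every library.

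All 9 factors were well covered, with 739 to 22960 reads per gene and library. Per kilobase of the longest annotated transcript, the order over the 12 libraries ran from Hopx at 204 CPM per kb through Zfp750 (111), Grhl1 (105), Klf4 (81.2), Grhl3 (47.0), Ovol1 (45.3) and Trp63 (38.5) to Gata3 (16.2) and Prdm1 (7.0). Hopx headed this order in the 3 groups of batch 1, at 321 CPM per kb without siRNA, 346 with siControl and 386 with siSbsn. In batch 2 it took rank 4 in both groups, at 61.8 and 53.5 CPM per kb, and Zfp750 led at 89.4 and 99.6. Gata3 and Prdm1 held the last places in all 5 groups. Over single libraries Ovol1 varied least, with its highest CPM 1.37 times its lowest, and Hopx most, at 9.63 times. By group mean, Zfp750 ran from siSbsn batch 1 through no siRNA and siControl of batch 1 to siSbsn and siControl of batch 2, with no overlap between neighbours in that order. Grhl1 had the same order, and its siSbsn and no siRNA libraries of batch 1 overlapped. For Hopx the 3 groups of batch 1 overlapped each other, as did both groups of batch 2, and for Ovol1 every neighbouring pair of groups overlapped. The counts of Trp63 join its long and short amino-terminal forms, which start at different promoters.

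**Figure D1:**
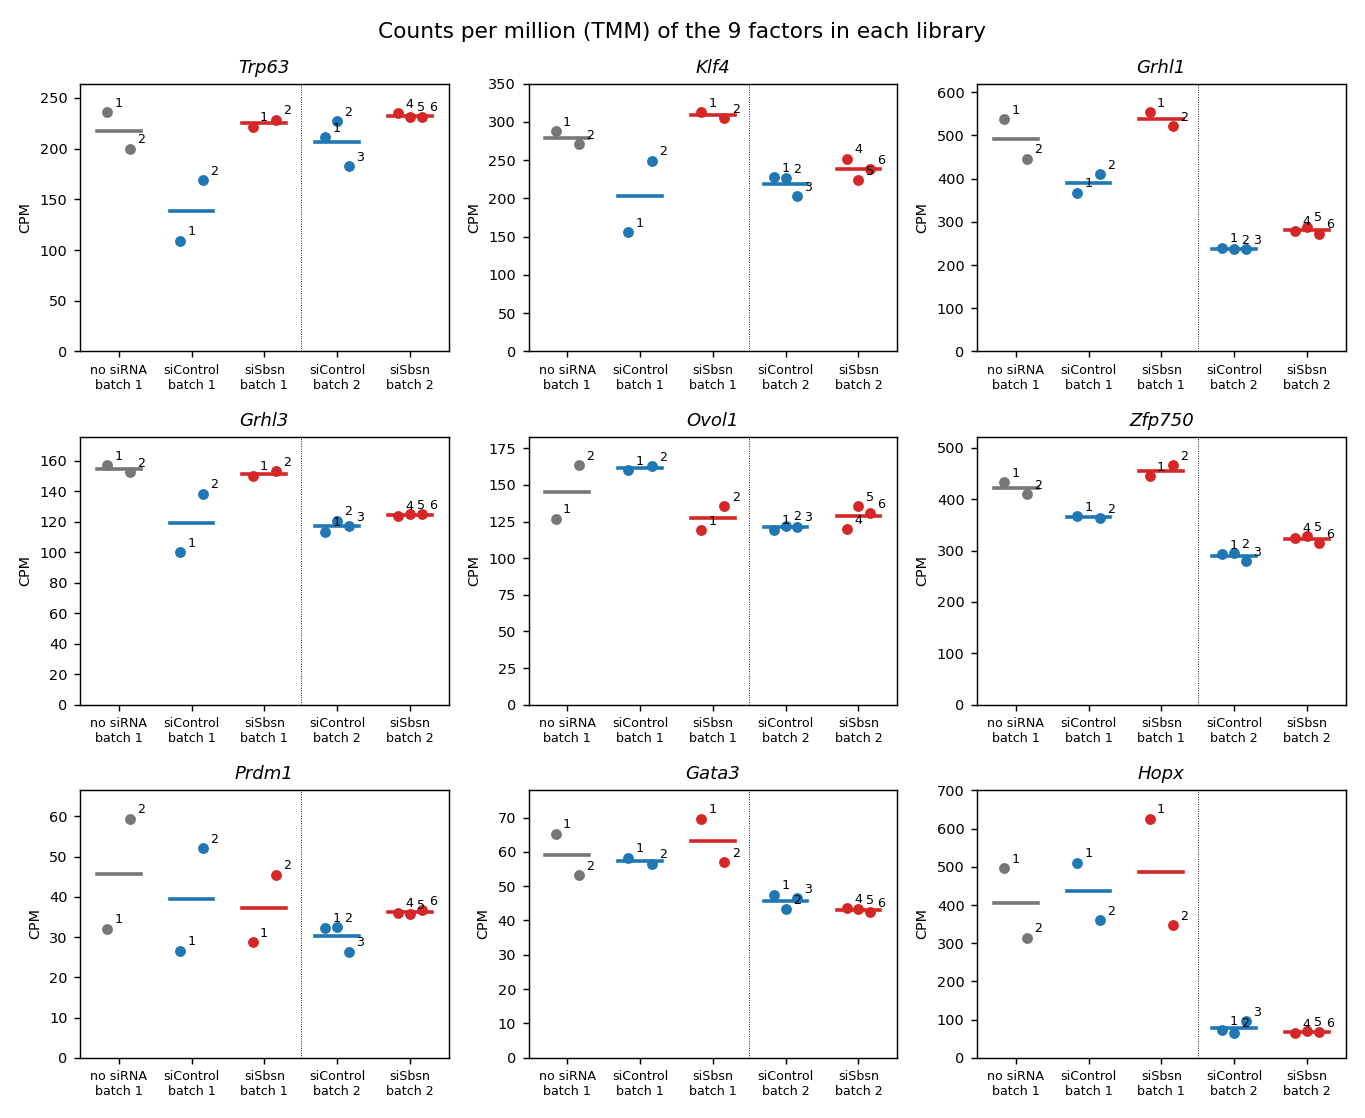
CPM (TMM) of each factor on a linear axis from 0, with a point per library numbered by replicate, a bar at the group mean, and batch 1 to the left of the dotted line. Hopx lies between 314 and 626 CPM in batch 1 and between 65.0 and 96.1 CPM in batch 2, and Trp63, Klf4 and Grhl3 are lowest in siControl batch 1 replicate 1.

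The first comparison set libraries labelled siSbsn against those labelled siControl. Over both batches, with batch as a covariate and 5 siControl against 5 siSbsn libraries, 0 of 9 were called at q under 0.05 and an absolute log2-fold change over 0.5, beside 0% of 13211 loci, and 4 of 9 had an unadjusted p under 0.05 beside 2501 loci. DESeq2 also called 0 of 9, and 96 loci. Log2-fold changes were above 0 for 7 of the 9, with a median of 0.20 against 0.01 for all loci tested. In 4 of 9, Trp63, Grhl1, Grhl3 and Zfp750, the siSbsn values exceeded all siControl values in each batch, a pattern seen in 5.02% of loci. The reverse was seen in 0 of 9 members and in 4.12% of loci.

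Trp63, which specifies and maintains stratified epithelium, stood at 109 and 169 CPM with siControl and at 222 and 228 CPM with siSbsn in batch 1. In batch 2 it stood at 211, 227 and 183 CPM with siControl and at 235, 231 and 232 CPM with siSbsn. The siSbsn libraries were close together in both batches, and the siControl libraries were spread below them. The log2-fold change was 0.39 (SE 0.14, edgeR's quasi-likelihood test with Benjamini-Hochberg adjustment, q = 0.256). It was 0.25 (SE 0.08, q = 0.24) without siControl batch 1 replicate 1, which held the lowest Trp63 of the 12 libraries, and leaving out the library labelled siSbsn batch 1 replicate 1 gave 0.35 (SE 0.15).

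Klf4, a zinc finger factor needed for the skin barrier, stood at 156 and 249 CPM with siControl and at 312 and 305 CPM with siSbsn in batch 1. In batch 2 the siControl libraries held 228, 226 and 203 CPM and the siSbsn libraries 252, 224 and 238 CPM, so that the groups overlapped there. The log2-fold change over both batches was 0.32 (SE 0.14, edgeR's quasi-likelihood test with Benjamini-Hochberg adjustment, q = 0.26). Without siControl batch 1 replicate 1 it was 0.18 (SE 0.07), and leaving out the library labelled siSbsn batch 1 replicate 1 gave 0.27 (SE 0.15).

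Grhl1, a grainyhead factor known for control of desmosomal cadherin genes, had the smallest unadjusted p of the 9 over both batches. It stood at 367 and 411 CPM with siControl against 553 and 522 CPM with siSbsn in batch 1, and at 240, 237 and 237 CPM against 279, 289 and 272 CPM in batch 2. The groups did not overlap in either batch, and in batch 2 the 3 siControl libraries lay within 4 CPM of each other. The log2-fold change was 0.34 (SE 0.07, edgeR's quasi-likelihood test with Benjamini-Hochberg adjustment, q = 0.256), and it lay between 0.29 and 0.36 when single libraries were left out. DESeq2 gave 0.34 with q = 0.00355, which passes on q and misses the fold change that a call needs. In batch 2 alone it was 0.24 (SE 0.06, q = 0.355 by edgeR with Benjamini-Hochberg adjustment).

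Grhl3, its paralog with a known part in barrier formation and in Tgm1 expression, stood at 100 and 138 CPM with siControl and 150 and 153 CPM with siSbsn in batch 1. In batch 2 it stood at 113, 120 and 117 CPM with siControl and 124, 125 and 125 CPM with siSbsn. All 5 siSbsn libraries lay above the control libraries of their batch, by a margin in batch 2 that is small against the level. The log2-fold change over both batches was 0.20 (SE 0.09, edgeR's quasi-likelihood test with Benjamini-Hochberg adjustment, q = 0.268), and 0.11 without siControl batch 1 replicate 1.

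Zfp750, a zinc finger protein induced by p63 that works with Klf4 in the switch to differentiation, stood at 367 and 362 CPM with siControl and 445 and 466 CPM with siSbsn in batch 1. In batch 2 the values were 293, 294 and 279 CPM with siControl and 325, 327 and 314 CPM with siSbsn. The groups did not overlap in either batch. The log2-fold change was 0.23 (SE 0.07, edgeR's quasi-likelihood test with Benjamini-Hochberg adjustment, q = 0.256), between 0.21 and 0.25 when single libraries were left out. DESeq2 gave 0.23 with q = 0.0124, again under the fold change that a call needs.

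Ovol1, a zinc finger repressor that helps progenitor cells stop dividing, stood at 160 and 163 CPM with siControl and 119 and 136 CPM with siSbsn in batch 1. In batch 2 it stood at 120, 122 and 122 CPM with siControl and 120, 136 and 131 CPM with siSbsn. The siSbsn libraries were lower in batch 1 and overlapped the control libraries in batch 2. Its log2-fold change over both batches was -0.08 (SE 0.10, q = 0.605 by edgeR's quasi-likelihood test with Benjamini-Hochberg adjustment). Leaving out the library labelled siSbsn batch 1 replicate 1 gave -0.01 (SE 0.09), and leaving out siControl batch 1 replicate 1 gave -0.05.

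Prdm1 encodes a transcriptional repressor that acts in late differentiation of granular cells and in sebaceous glands. In batch 1 it stood at 26.6 and 52.1 CPM with siControl and 28.8 and 45.5 CPM with siSbsn. In batch 2 it stood at 32.3, 32.4 and 26.3 CPM with siControl and 36.0, 35.7 and 36.7 CPM with siSbsn. The groups overlapped in batch 1, where replicates differed more than treatments, and did not overlap in batch 2. The log2-fold change was 0.12 (SE 0.19) over both batches and 0.25 (SE 0.09, edgeR's quasi-likelihood test with Benjamini-Hochberg adjustment, q = 0.47) in batch 2. The value over both batches was 0.01 without siControl batch 1 replicate 1, and 0.33 without siControl batch 1 replicate 2. Leaving out the library labelled siSbsn batch 1 replicate 1 gave 0.24.

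Gata3 and Hopx lay near 0 in this comparison, with log2-fold changes of 0.01 (SE 0.08) and -0.05 (SE 0.18). Gata3 stood at 58.3 and 56.5 CPM with siControl and 69.7 and 56.9 CPM with siSbsn in batch 1, and at 42.4 to 47.6 CPM in the 6 libraries of batch 2. Hopx stood at 511 and 361 CPM with siControl and 626 and 347 CPM with siSbsn in batch 1, and at 65.0 to 96.1 CPM in batch 2. For both genes the groups overlapped in each batch. Leaving out the library labelled siSbsn batch 1 replicate 1 gave log2-fold changes of -0.06 (SE 0.06) for Gata3 and -0.24 (SE 0.13) for Hopx.

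**Figure D2:**
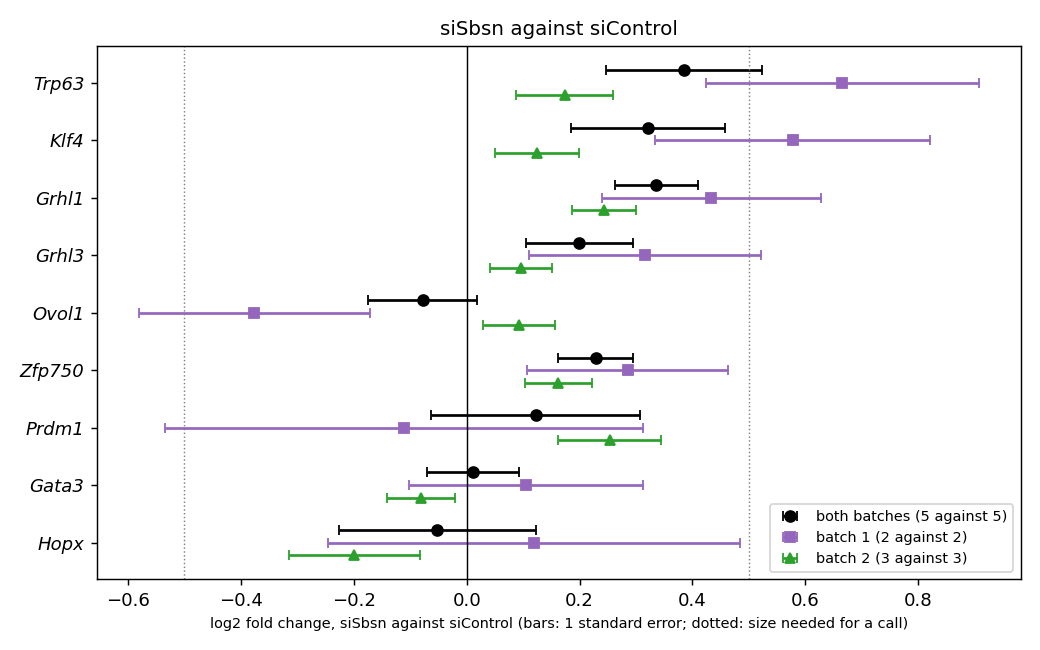
Log2-fold changes of siSbsn against siControl on the horizontal axis for each factor, with bars of 1 standard error, over both batches (circles), in batch 1 (squares) and in batch 2 (triangles). Trp63 lies at 0.67 in batch 1 and 0.17 in batch 2, Ovol1 at -0.38 and 0.09, and the dotted lines at -0.5 and 0.5 mark the size a call needs.

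Within batch 1, 0 of 9 factors were called for siSbsn against siControl beside 0% of 13176 loci, with 2 of 9 members and 2077 loci at an unadjusted p under 0.05 (edgeR), and DESeq2 called 0 of 9 and 168 loci. In batch 1, 5 of 9 had both siSbsn libraries above both siControl libraries beside 25.4% of loci, and 1 of 9, Ovol1, had both below beside 25.6%. The log2-fold changes were 0.67 (SE 0.24) for Trp63, 0.58 (SE 0.24) for Klf4, 0.43 (SE 0.19) for Grhl1 and -0.38 (SE 0.20) for Ovol1. The call rested on which siControl library was kept. Without siControl batch 1 replicate 2, which left the library that stands apart as the lone control, Trp63 was at 0.99 (q = 0.032) and Klf4 at 0.93 (q = 0.0296), both called by edgeR's quasi-likelihood test with Benjamini-Hochberg adjustment. Without replicate 1 in its place they were at 0.41 and 0.30, not called, and 2618 (19.3%) and 0 loci were called in these 2 fits. Leaving out the library labelled siSbsn batch 1 replicate 1 gave 0.69 for Trp63, 0.56 for Klf4, 0.40 for Grhl1, 0.33 for Grhl3, 0.32 for Zfp750, -0.28 for Ovol1, 0.19 for Prdm1, -0.04 for Gata3 and -0.36 for Hopx, with 0 loci called and 705 at an unadjusted p under 0.05 (edgeR). In such fits the lone sample was assumed to vary like the other groups.

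Within batch 2, 0 of 9 were called beside 0.00774% of 12924 loci, which is Sbsn alone, and 3 of 9 had an unadjusted p under 0.05 by edgeR beside 1319 loci. DESeq2 called 0 of 9 and 7 loci. In 5 of 9, Trp63, Grhl1, Grhl3, Zfp750 and Prdm1, the siSbsn libraries lay above every siControl library beside 9.39% of loci, and in 0 of 9 they lay below every control library beside 9.15%. Log2-fold changes ran from -0.20 (Hopx, SE 0.12) to 0.25 (Prdm1), all smaller than the size needed for a call. The siControl library replicate 3 of batch 2 was lowest of the 6 for Trp63, Klf4, Grhl1, Zfp750 and Prdm1 and highest for Hopx. Without it Trp63 was at 0.08, Prdm1 at 0.15 and Hopx at -0.04, in place of 0.17, 0.25 and -0.20.

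The difference between the batches in the siSbsn effect was tested by an interaction term. Of the 9, 0 were called beside 0% of 13419 loci, with 1 of 9 members (Ovol1) and 1991 loci at an unadjusted p under 0.05 by edgeR, and 0 members and 205 loci called by DESeq2. The interaction for Ovol1 was 0.45 (SE 0.14, edgeR's quasi-likelihood test with Benjamini-Hochberg adjustment, q = 0.281), for Trp63 -0.51 (SE 0.24) and for Klf4 -0.47 (SE 0.24). Leaving out siControl batch 1 replicate 2 moved Trp63 to -0.86 (q = 0.00548) and Klf4 to -0.86 (q = 0.0046), both then called by the same test beside 31.6% of loci, and leaving out siControl batch 1 replicate 1 moved them to -0.23 and -0.18. Leaving out the library labelled siSbsn batch 1 replicate 1 gave 0.33 for Ovol1, -0.56 for Trp63, -0.48 for Klf4, 0.03 for Prdm1 (0.35 with all libraries) and 0.11 for Hopx (-0.35 with all libraries).

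The labels give 2 libraries of batch 1 as no siRNA and do not say whether these wells received transfection reagent. Against these, siControl gave 0 of 9 called beside 0% of 13176 loci (1 of 9 and 2116 loci at an unadjusted p under 0.05 by edgeR, and 0 and 26 called by DESeq2). Trp63 stood at 236 and 200 CPM without siRNA against 109 and 169 CPM with siControl, a log2-fold change of -0.62 (SE 0.24, edgeR's quasi-likelihood test with Benjamini-Hochberg adjustment, q = 0.308). Klf4 stood at 288 and 271 CPM without siRNA, a log2-fold change of -0.44 for siControl. Without siControl batch 1 replicate 2 both were called lower with siControl, at -0.94 (q = 0.03) and -0.79 (q = 0.0297), together with Grhl3 at -0.57 (q = 0.0451), beside 23.7% of loci called in that fit, and without replicate 1 the 3 were at -0.36, -0.16 and -0.15.

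For siSbsn against no siRNA, 0 of 9 were called beside 0% of 13176 loci, and DESeq2 called 0 loci. By edgeR 0 of 9 and 23 loci (0.175%) had an unadjusted p under 0.05, fewer loci than that threshold passes where nothing differs. The lack of calls here therefore does not measure how alike the groups were. The log2-fold changes ran from -0.30 (Prdm1, SE 0.42) to 0.26 (Hopx, SE 0.36), and Trp63 was at 0.05 (SE 0.24), Klf4 at 0.14 (SE 0.24) and Grhl1 at 0.13 (SE 0.19). Leaving out the library labelled siSbsn batch 1 replicate 1 gave -0.0018 for Prdm1, -0.22 for Hopx and 0.07 for Trp63. The 3 comparisons within batch 1 share libraries. A high or low siControl library therefore enters siSbsn against siControl and siControl against no siRNA with opposite signs. For Trp63 both siSbsn libraries lay between the pair without siRNA, for Klf4 both lay above that pair, and for Grhl3, at 157 and 152 CPM without siRNA, the groups overlapped.

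The largest difference of any member among the 7 comparisons was between the batches. With treatment as a covariate, 2 of 9 were called between batch 2 and batch 1, beside 38% of 13211 loci, and both were lower in batch 2, beside 21.6% of loci called lower. Hopx fell by 2.68 on the log2 scale (SE 0.18, edgeR's quasi-likelihood test with Benjamini-Hochberg adjustment, q = 3.37e-06), which is 6.39-fold lower in batch 2. It held a mean of 461 CPM (SD 133, n = 4) in the transfected libraries of batch 1 and 72.7 CPM (SD 11.8, n = 6) in those of batch 2. Its absolute change was larger than that of 98.9% of loci. The lowest library of batch 1 for Hopx, no siRNA replicate 2 at 314 CPM, lay above the highest of batch 2 at 96.1 CPM.

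Grhl1 fell by 0.83 on the log2 scale (SE 0.07, edgeR's quasi-likelihood test with Benjamini-Hochberg adjustment, q = 1.77e-05), or 1.78-fold. Its transfected libraries held 463 CPM (SD 88.6, n = 4) in batch 1 and 259 CPM (SD 23.9, n = 6) in batch 2. Hopx and Grhl1 were called in the comparison and in all 14 alternatives, Hopx between -2.79 and -2.34 and Grhl1 between -0.87 and -0.77. Zfp750 at -0.42 (SE 0.07, q = 0.000635) and Gata3 at -0.45 (SE 0.08, q = 0.00147) passed on q and stayed under the fold change that a call needs (same test). In 4 of 9, Grhl1, Zfp750, Gata3 and Hopx, every transfected library of batch 2 lay below every one of batch 1, beside 19.1% of loci, and in 0 of 9 above, beside 16.9%.

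Trp63 was the 1 member with a higher mean in batch 2, at 220 CPM (SD 20.1, n = 6) against 182 CPM (SD 55.4, n = 4), a log2-fold change of 0.30 (SE 0.14, edgeR's quasi-likelihood test with Benjamini-Hochberg adjustment, q = 0.0925). It was 0.15 without siControl batch 1 replicate 1. Klf4 (-0.14), Grhl3 (-0.16), Ovol1 (-0.21) and Prdm1 (-0.21) were not called. Without siControl batch 1 replicate 1, Klf4 at -0.29 and Grhl3 at -0.26 passed on q (0.00549 and 0.00237) and not on size. The keratinocyte markers summed to 53900 to 119000 CPM in batch 1 and 43400 to 57400 CPM in batch 2, the melanocyte markers to 684 to 852 CPM and 964 to 1020 CPM, and the fibroblast markers to 439 to 1210 CPM and 385 to 449 CPM. Their part in the batch difference was not tested. In bulk RNA, fewer cells that express a gene and less RNA per cell cannot be told apart.

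Other genes of the pathway were read from lists of related genes for the same batch comparison. Of 31 other transcription factors of the epidermis, 11 were lower in batch 2, 3 were higher and 17 were not called, with a median log2-fold change of -0.30 against -0.02 for all loci. Over all loci tested 21.6% were called lower and 16.4% higher. The lower ones were Elf3 (-1.68), Pou2f3 (-1.62), Ehf (-1.56), Pou3f1 (-1.35), Runx1 (-0.98), Vdr (-0.96), Barx2 (-0.90), Cebpd (-0.66), Cebpb (-0.64), Dlx3 (-0.61) and Hes1 (-0.55), and the higher ones Rora (0.94), Rbpj (0.67) and Grhl2 (0.55). Elf3 and Ehf are ETS factors of epithelia and Grhl2 is the third grainyhead factor, so that Grhl1 and Grhl2 were called in opposite directions. Ovol2, a paralog of Ovol1, was at 1.94 CPM in batch 1 and 1.63 CPM in batch 2 and was not called.

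Of 20 late differentiation genes, 13 were lower in batch 2, 1 was higher and 6 were not called, beside 21.6% of loci called lower and 16.4% higher, with a median log2-fold change of -1.20. Those with the largest differences were Alox12b (-3.07, a barrier lipoxygenase), Cnfn (-2.87, cornifelin), Cdsn (-2.47, corneodesmosin), Ivl (-2.31, involucrin), Sprr1b (-1.99) and Krtdap (-1.88). Alox12b was low in both batches, at a mean of 5.52 CPM in batch 1 and 0.642 CPM in batch 2. Tgm1, a cross-linking enzyme and known grainyhead target, was at -1.54 (SE 0.12), Dsg1a, a desmosomal cadherin of the family Grhl1 is known to control, at -1.15 (SE 0.24), and Krt10, an early suprabasal keratin, was higher at 1.00 (SE 0.38). The other lower genes were Lor (-1.81), Sprr1a (-1.79), Ppl (-1.02), Evpl (-0.69) and Casp14 (-0.67).

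Of 15 basal keratinocyte genes, 3 were higher in batch 2, 3 were lower and 9 were not called, with a median of 0.20, beside 16.4% of loci called higher and 21.6% lower. The higher ones were Dst (1.20, dystonin of the hemidesmosome), Fras1 (0.99) and Jag2 (0.74), and the lower ones Krt5 (-0.92), Krt14 (-0.84) and Perp (-0.72). Of 14 chromatin and cofactor partners, 2 were higher, among them Ezh2 (0.57), Hdac1 (-0.63) was lower and 11 were not called, beside the same shares of all loci. Rcor1, Kdm1a, Ctbp1 and Ctbp2, known partners of Zfp750 protein, were among those not called, at 0.68 (SE 0.46), 0.01 (SE 0.06), -0.17 (SE 0.09) and 0.04 (SE 0.08). Of the listed genes, 7 transcription factors, 1 late gene and 3 basal genes were counted in rows that also name other genes, Cebpb and Cebpd among them, and their counts cannot be told apart from those neighbours.

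**Figure D3:**
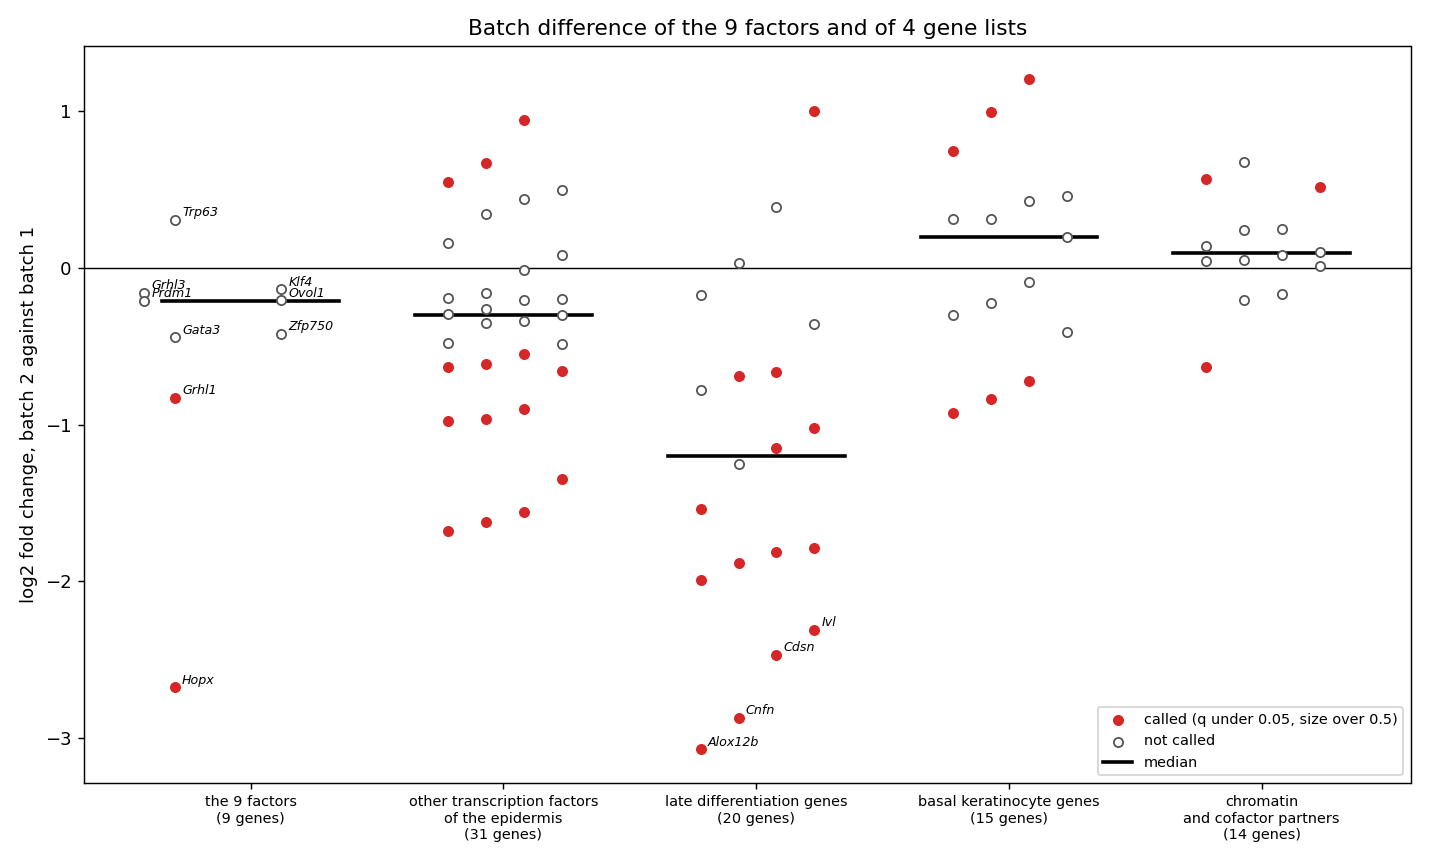
Log2-fold changes of batch 2 against batch 1 on the vertical axis for the 9 factors and 4 gene lists, with filled points for called genes and a bar at each median. Hopx at -2.68 lies among the late differentiation genes with the largest differences, whose list median is -1.20, while the median of the 9 factors is -0.21.

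For siSbsn against siControl over both batches, none of the genes in these 4 lists was called, beside 0% of 13211 loci (edgeR's quasi-likelihood test with Benjamini-Hochberg adjustment). At an unadjusted p under 0.05 by the same test were 8 of 31, 8 of 20, 4 of 15 and 1 of 14, beside 18.9% of loci. The smallest unadjusted p in each list belonged to Vdr (0.41, SE 0.10) and Dlx3 (0.53, SE 0.13) among the factors, to Ppl (0.45, SE 0.11) and Alox12b (-0.62, SE 0.19) among late genes, to Fras1 (0.95, SE 0.22) and Lamb3 (-0.25, SE 0.07) among basal genes, and to Ctbp1 (-0.23, SE 0.09) and Satb1 (0.27, SE 0.13) among partners, with q between 0.256 and 0.272. The medians of the lists were 0.20, 0.08, 0.08 and 0.05, beside 0.20 for the 9 factors. These values join batches that differed. In batch 1 the list medians were 0.351, 0.00736, 0.216 and 0.0535, beside 0.285 for the 9 factors. In batch 2, where alone lower Sbsn was called, they were 0.00232, 0.109, -0.00857 and 0.0241, beside 0.125.

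Within batch 1, 4 of the 9 factors went 1 way with the replicate number in all 3 treatments, beside 55.6% of 13562 loci. For Prdm1 the library numbered 2 exceeded that numbered 1 under all 3 treatments, at 59.4 against 32.0 CPM without siRNA, 52.1 against 26.6 CPM with siControl and 45.5 against 28.8 CPM with siSbsn. Hopx was lower in number 2 in all 3, at 314 against 497 CPM, 361 against 511 CPM and 347 against 626 CPM. Ovol1 was also higher in number 2 (log2 differences of 0.36, 0.02 and 0.18) and Gata3 lower (-0.29, -0.04 and -0.29). For Ovol1 and Gata3 the siControl difference was the smallest in size of the 3. Trp63, Klf4 and Grhl3 did not follow the number: they differed by 0.63, 0.68 and 0.46 between the siControl libraries and by 0.24 or less in size in the other treatments.

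**Figure D4:**
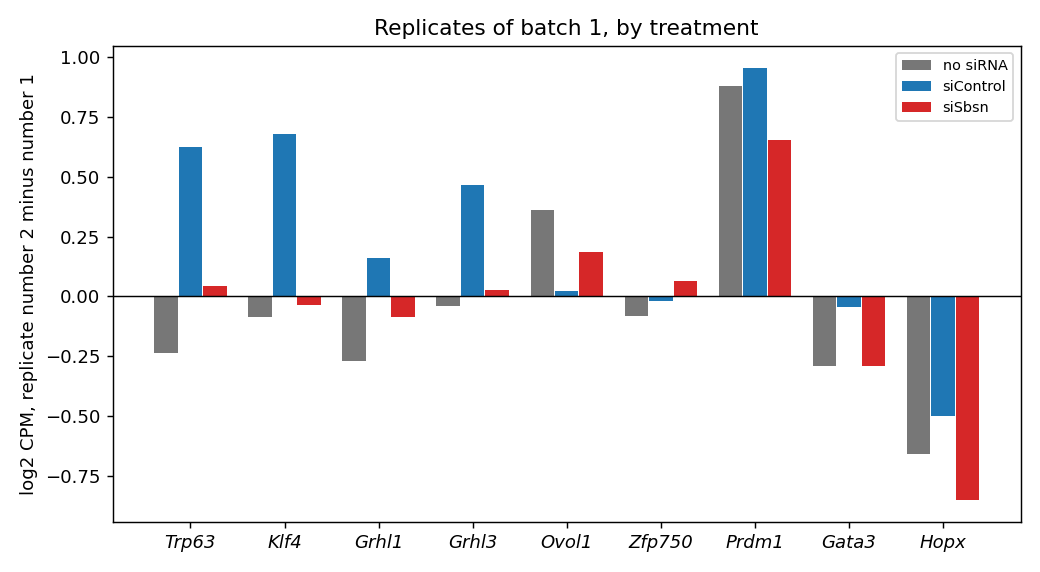
Log2 CPM of replicate number 2 minus number 1 in batch 1 on the vertical axis, with a bar per treatment and no error bar since each is a difference of 2 libraries. The Prdm1 bars lie at 0.88, 0.96 and 0.65 and the Hopx bars at -0.66, -0.50 and -0.85.

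The factors were compared over the 12 libraries once each batch was centred. These correlations are descriptions over libraries that share batches and controls and whose spread is largest in siControl batch 1 replicate 1. Pearson's r was 0.97 between Trp63 and Klf4, 0.95 between Trp63 and Grhl3, 0.93 between Grhl1 and Zfp750 and 0.84 between Gata3 and Hopx. Without siControl batch 1 replicate 1 these were 0.86, 0.82, 0.92 and 0.91 over 11 libraries, and that of Klf4 with Grhl3 went from 0.94 to 0.60. How such values ranked among all loci differed by pair. Ranked by r with Trp63, Klf4 stood at percentile 97.6 of 7489 single-gene loci with a mean of at least 5 CPM, Grhl3 at 95.9, Grhl1 at 84.7 and Zfp750 at 78.0. Zfp750 stood at percentile 72.9 by r with Klf4 and 68.5 by r with Grhl3, and at 99.3 by r with Grhl1. Prdm1 ran against Hopx, at -0.92 over 12 and -0.94 over 11 libraries, and against Gata3, at -0.74 and -0.94. Ovol1 ran against Gata3 at -0.83 and -0.85, and alongside Prdm1 at 0.51 and 0.87. By r with Gata3, Hopx stood at percentile 97.6, Prdm1 at 4.07 and Ovol1 at 1.72. By r with Prdm1, Hopx stood at 1.72 and Ovol1 at 71.0. Prdm1, Hopx, Gata3 and Ovol1 are the factors that went with the replicate number in every treatment of batch 1. Centring by batch leaves that pattern in these values, and leaving out siControl batch 1 replicate 1 keeps it in the other treatments. Its part in these correlations was not tested.

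**Figure D5:**
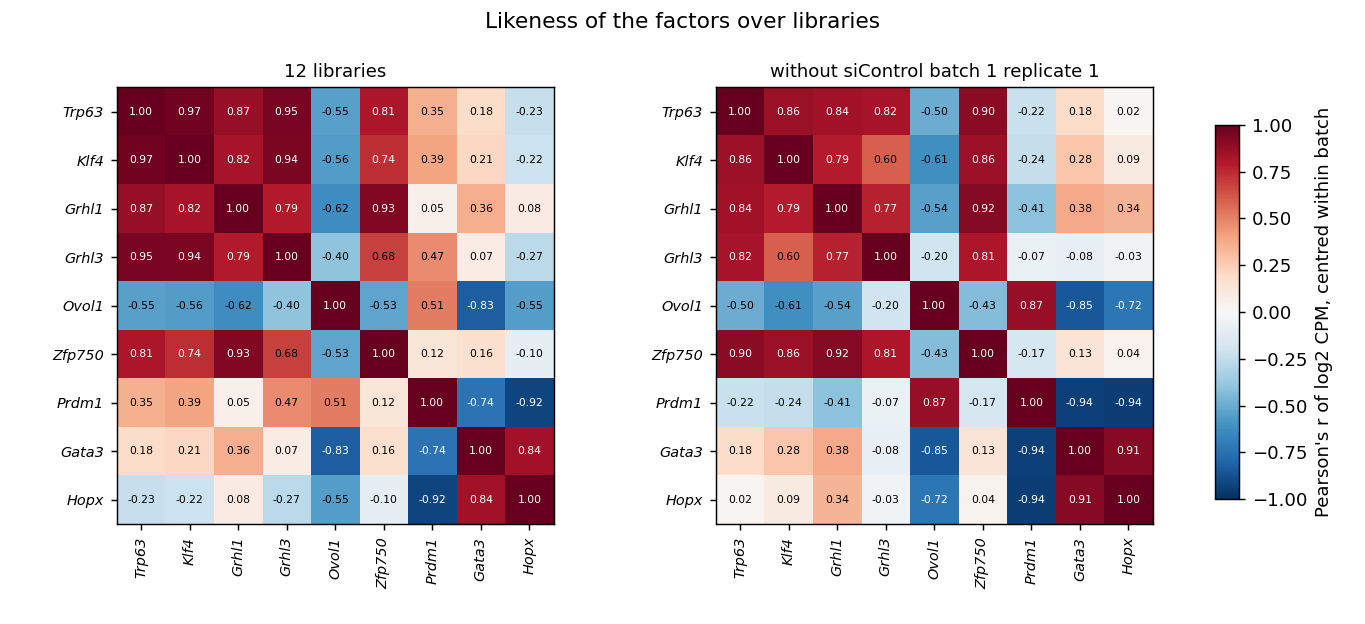
Pearson's r between the factors' log2 CPM after centring within batch, over 12 libraries (left) and without siControl batch 1 replicate 1 (right), with red for values above 0 and blue for values below 0. Values among Trp63, Klf4, Grhl1, Grhl3 and Zfp750 run from 0.68 to 0.97 on the left and from 0.60 to 0.92 on the right. On the left, Zfp750 ranks at percentile 78.0 of all candidate loci by r with Trp63. Prdm1 with Hopx is at -0.92 and -0.94, and both went with the replicate number in batch 1, which centring leaves in.

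Among the same 7489 loci, those most like each factor by the same measure over 12 libraries were as follows. Values without siControl batch 1 replicate 1, where the spread was largest, are not given for these pairs. Trp63 was most like Cxadr (r = 0.996), the gene of a cell adhesion receptor, and Top2b (0.995), a topoisomerase. Klf4 was most like Snrk (0.99) and Mut (0.99), Grhl3 like Dsel (0.99) and Ctage5 (0.98), and Prdm1 like Cbll1 (0.99) and Ets2 (0.98). Grhl1 was most like Osbpl5 (0.98), and Zfp750 like Esrp1 (0.98), an epithelial splicing factor, and Kazn (0.98), a gene of a desmosome-associated protein. Ovol1 was most like Ncs1 (0.96) and Dapp1 (0.94), Gata3 like Polm (0.97) and Slc2a1 (0.95), the gene of a glucose transporter, and Hopx like Vdac1 (0.97), a mitochondrial channel, and Aig1 (0.97).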

How the data were processed

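RNA-seq libraries were analysed from the deposited table of read counts per locus. Per the labels and the study's methods, the authors aligned reads to mm10 with STAR and kept uniquely aligned reads against UCSC KnownGene. Use of strand: not given in the sources used here. Values are raw counts, not normalized. Member rows are at chromosome 16 (25683765 to 25892088, Trp63), 4 (55527137 to 55532475, Klf4, and 135541888 to 135573620, Grhl3), 12 (24572287 to 24617391, Grhl1), 19 (5549137 to 5560575, Ovol1), 11 (121510976 to 121519342, Zfp750), 10 (44437174 to 44528501, Prdm1), 2 (9857078 to 9878600, Gata3) and 5 (77086986 to 77115123, Hopx) of mm10, after 1 was added to each start, since 39.5% of 15127 starts then equal GENCODE M21 and 3.84% as given. They span exons and introns.

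Counts were fitted over all loci with edgeR 4.0.16 (R 4.3.3), TMM scaling, filterByExpr and the quasi-likelihood F test. A locus was called where Benjamini-Hochberg q over all loci tested was under 0.05 and the log2-fold change was over 0.5 in size. Comparisons over both batches used batch (or treatment) as a covariate and the 10 transfected libraries, and those within batch 1 used 1 model of 6 libraries. DESeq2 1.42.0 was an alternative, as were RLE scaling, no filter, a replicate block, all 12 libraries, no batch term, a gene length correction and each library left out. Levels are CPM from TMM-scaled totals, and log2 CPM used a pseudocount of 0.5. The code was tested on simulated data: with 100 loci changed by a log2 of 1 and 100 by 2, the comparison over both batches recovered 83 and 98, batch 1 8 and 84, batch 2 91 and 99, and the batch comparison 79 and 96, with 3, 18, 4 and 2 false calls.

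The rule for members uses gene names and no measured value. Members and gene lists were still chosen with earlier results of these data known. Named genes are the members, Sbsn, the 2 loci most like each member, and listed genes that were called or, where none was, had the 2 smallest unadjusted p over both batches. Some genes that this rule names are not reported here. A few others, such as the Zfp750 partners and Ovol2, were named for their relation to members after their values were seen. Total counts differed between libraries by less than 2-fold, and all replicate pairs differed by more than counting error (chi-square over its degrees of freedom of 4.59 to 207).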

Additional observations from a re-analysis of the deposited data

How the results depend on the processing

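In the comparisons between siRNA treatments, no member was called under any alternative except without siControl batch 1 replicate 2, as given above, and direction was kept by 718 of 747 repeated member values. With DESeq2 96 loci were called over both batches, 168 in batch 1, 7 in batch 2, 205 for the interaction and 26 for siControl against no siRNA, and without the filter 851, 9, 17 and 815 in batch 1, in batch 2, for the interaction and for siControl against no siRNA. Leaving out single libraries gave 0 to 2618 calls in batch 1, 1 to 10 in batch 2, 0 to 4362 for the interaction (411 without siSbsn batch 1 replicate 2) and 0 to 3213 for siControl against no siRNA. The largest counts in batch 1, for the interaction and for siControl against no siRNA came without siControl batch 1 replicate 2, and the 10 came without siControl batch 2 replicate 3. The cause was not tested.

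Over both batches Hopx was at 0.091 without the batch term and 0.18 with the gene length trend removed. With single libraries left out, the log2-fold changes that turned direction had these ranges. Over both batches they were -0.0581 to 0.0408 for Gata3 and -0.24 to 0.0559 for Hopx. In batch 1 they were -0.50 to 0.43 for Prdm1, -0.0423 to 0.24 for Gata3 and -0.36 to 0.48 for Hopx. For the interaction they were -0.22 to 0.75 for Prdm1 and -0.71 to 0.11 for Hopx. For siControl against no siRNA they were -0.72 to 0.33 for Prdm1, -0.15 to 0.14 for Gata3 and -0.16 to 0.51 for Hopx. For siSbsn against no siRNA they were -0.0664 to 0.17 for Trp63, -0.000284 to 0.27 for Grhl1, -0.36 to 0.0057 for Ovol1, -0.68 to 0.22 for Prdm1, -0.0534 to 0.25 for Gata3 and -0.22 to 0.63 for Hopx. Between batches Prdm1 ran from -0.35 to 0.0578. None of these values was called.

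Replicate numbers 1 and 2 occur in each treatment of batch 1, and same-numbered libraries deviated together (r of 0.38, 0.81 and 0.46 between treatments over 13562 loci), but nothing in the labels says what a number shares. With the replicate block, 0 loci were called over both batches, in batch 1, for siControl against no siRNA and for siSbsn against no siRNA, and Trp63 over both batches was at 0.40 (q = 0.117 by edgeR). Of 100 simulated loci with a log2 change of 1, 8 were recovered in batch 1, 91 in batch 2 and 83 over both batches. The simulated counts carried no batch difference and no deviation shared between libraries, so they do not measure recovery in these libraries.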
